A study of Sus scrofa with 6 samples.

Results

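Cholesterol synthesis enzymes were examined in pig oocytes from large and small antral follicles. Of 7 listed enzymes, chosen by gene name, 6 were measured (HMGCS1, FDFT1, SQLE, MSMO1, HSD17B7 and DHCR7) out of 19271 rows with a gene name or identifier. LSS, which closes squalene epoxide into lanosterol, was not analysed here. The large-follicle group held oocytes from follicles of 3 to 6 mm, with 3 libraries, and the small-follicle group oocytes from follicles of 1.5 to 1.9 mm, with 3 libraries. Both groups came from prepubertal gilts slaughtered at an abattoir, no agent was given to either, and oocytes were stripped of cumulus cells before RNA was isolated. The series compares oocytes of differing developmental competence. The labels give neither the breed nor the age in days of the gilts, nor how many gilts each library drew on, and p-values here reflect spread between libraries that may be technical.

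Cholesterol is built from acetyl-CoA through mevalonate and farnesyl diphosphate to squalene, which is oxidised, closed to lanosterol and then trimmed and reduced to cholesterol. Transcription of most of these enzymes is driven by SREBP2, which is released from its membrane anchor when sterols in the endoplasmic reticulum are low. In the mouse, cumulus cells carry much of this synthesis and pass sterol to the oocyte, which has little of its own. The intermediates made just after lanosterol, by CYP51A1 and the sterol reductases that follow it, are known as meiosis-activating sterols, and MSMO1, NSDHL and HSD17B7 act next on them.

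Total counts ranged from 8015357 (large-follicle library 3) to 56887282 (large-follicle library 2). On the first principal component, large-follicle library 3 scored 33.5 and the other 5 libraries between -18.1 and 0.595. Oocyte markers summed to 23572 to 27093 TPM in large-follicle and 33069.9 to 34730.3 TPM in small-follicle oocytes (TPM, a transcript level scaled by gene length and depth), with BMP15 the highest at 7355 and 9892 TPM. The 17 granulosa and cumulus markers measured summed to 252 to 257 TPM in large-follicle and 228 to 336 TPM in small-follicle oocytes, led by GATA4 (86.3 and 88.0 TPM), and 8 of the 17 averaged under 1 TPM. None of the 17 was at 0 in every library, and FSHR, the FSH receptor, averaged 0.921 TPM in large-follicle and 0.997 TPM in small-follicle oocytes. Theca and stromal markers summed to 10.6 to 11.3 TPM in large-follicle and 11.2 to 13.1 TPM in small-follicle oocytes, and blood, immune and endothelial markers to 4.48 to 6.80 TPM in large-follicle and 5.41 to 5.92 TPM in small-follicle oocytes. A relative measure from pooled cells cannot tell fewer cells of a type from less RNA per cell.

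The 6 enzymes covered a wide range of levels in the oocyte. FDFT1 stood highest, at 779 ± 10.4 TPM in large-follicle and 761 ± 17.1 TPM in small-follicle oocytes (mean ± SD, n = 3 each), and DHCR7 lowest, at 7.69 ± 0.534 TPM in large-follicle and 9.09 ± 0.489 TPM in small-follicle oocytes. The median tested gene lay between 17.8 and 18.9 TPM in the 6 libraries. By mean TPM, FDFT1 ranked 120 and HSD17B7 226 among the 19271 rows, MSMO1 2198, SQLE 2928, HMGCS1 5616 and DHCR7 8907. FDFT1 and HSD17B7 together made up 85.3% ± 1.13 of the summed TPM of the 6 enzymes in large-follicle and 85.6% ± 0.135 in small-follicle oocytes. The sum itself was 1629 ± 136 TPM in large-follicle and 1425 ± 17.3 TPM in small-follicle oocytes.

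**Figure D1:**
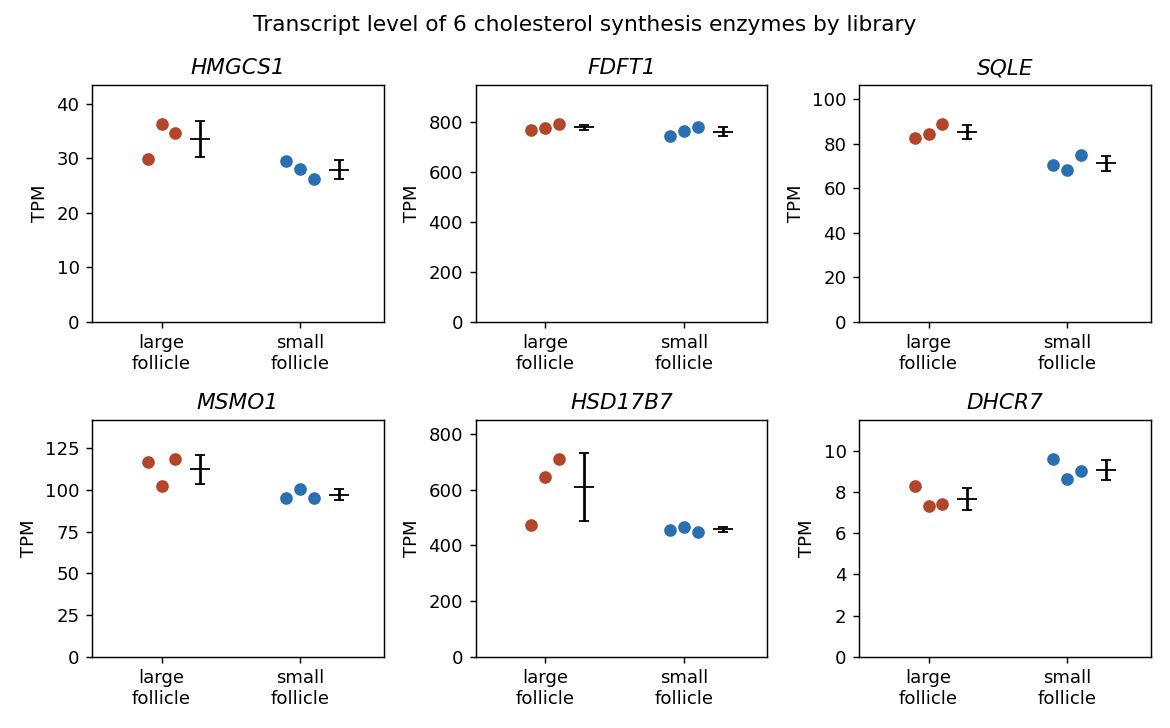
TPM (y axes, from 0) of each enzyme in the 3 large-follicle (red) and 3 small-follicle (blue) libraries; bars give mean ± SD. The groups overlap for FDFT1, and large-follicle library 1 (475 TPM) sits close to the small-follicle libraries for HSD17B7.

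No enzyme of the 6 passed the test between follicle sizes, by edgeR's quasi-likelihood test on the counts at an adjusted p under 0.05 over 14091 genes. Among all genes tested, 0.0639% passed. At an unadjusted p under 0.05 there were 4 of the 6 (HMGCS1, SQLE, MSMO1 and HSD17B7), each with a higher mean in large-follicle oocytes, against 9.85% of all genes with a higher mean at that p. That count was 2 (SQLE and HSD17B7) without small-follicle library 3. In TPM, 4 of the 6 lay higher in every large-follicle library than in any small-follicle library, where 10.2% of all genes did so. DHCR7 lay lower in every large-follicle library, as did 12.2% of all genes. With counts scaled by TMM, 3 of the 6 lay higher in every large-follicle library, as did 1704 of the 14091 genes. The median log2 difference, large minus small, was 0.24 over the 6 enzymes and 0.0039 over all genes tested. Over all 18 pathway enzymes reported here it was 0.033. The 6 were chosen with earlier results of these data known, so their counts and median are description only. DESeq2 called 2 of the 6 at an adjusted p under 0.05, HSD17B7 and SQLE, both higher in large-follicle oocytes, where 6.59% of the genes with an adjusted p passed in either direction and 3.55% were higher.

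HMGCS1, the cytosolic synthase that makes HMG-CoA near the start of the pathway, stood at 29.8, 36.2 and 34.5 TPM in large-follicle libraries 1, 2 and 3, against 29.5, 28.1 and 26.1 TPM in small-follicle libraries 1, 2 and 3. The groups did not overlap, but large-follicle library 1 and small-follicle library 1 lay next to each other. Its log2 difference was 0.27 (SE 0.094, 95% interval 0.059 to 0.48; edgeR's quasi-likelihood test, adjusted p = 0.182). HMGCS1 lies on chromosome 16 from 27936225 to 27957261 in assembly Sscrofa11.1.

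FDFT1, squalene synthase, joins farnesyl units and commits them to sterols. It stood at 770, 776 and 790 TPM in large-follicle and 744, 762 and 778 TPM in small-follicle libraries. The groups overlapped, and the whole range over 6 libraries was 744 to 790 TPM. Its log2 difference was 0.040 (SE 0.067, 95% interval -0.11 to 0.19; edgeR's quasi-likelihood test, adjusted p = 0.801), which corresponds to a ratio between 0.926 and 1.14, and it turned to -0.0091 when libraries were scaled by size alone. FDFT1 was among the steadiest transcripts measured. The SD of its log2 CPM over the 6 libraries was 0.042, and 132 of the 14091 genes tested, FDFT1 included, had an SD that low, as did 53 of the 2315 genes with a mean of at least 100 TPM. The gene lies on chromosome 14 from 14976259 to 15010701.

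SQLE, squalene epoxidase, is the oxygen-dependent step after squalene and a second control point of the pathway. It stood at 82.7, 84.1 and 88.6 TPM in large-follicle libraries, against 70.3, 68.2 and 74.9 TPM in small-follicle libraries. The groups were apart by more than the spread within either. The log2 difference was 0.27 (SE 0.074, 95% interval 0.0999 to 0.43), a ratio between 1.07 and 1.35, with the smallest p of the 6 enzymes, and it did not pass over all genes (edgeR's quasi-likelihood test, adjusted p = 0.127). DESeq2 gave an adjusted p of 0.0392. SQLE lies on chromosome 4 from 14669789 to 14700152. FDFT1, which makes the substrate of SQLE, had 9.15 ± 0.210 times the TPM of SQLE in large-follicle and 10.7 ± 0.409 times in small-follicle oocytes.

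MSMO1, the oxidase that starts removal of the methyl groups left on lanosterol, stood at 116, 102 and 118 TPM in large-follicle libraries, against 95.0, 101 and 95.1 TPM in small-follicle libraries. Large-follicle library 2 lay just above small-follicle library 2 in TPM, and the groups overlapped once counts were scaled by TMM. Its log2 difference was 0.22 (SE 0.090, 95% interval 0.014 to 0.42; edgeR's quasi-likelihood test, adjusted p = 0.250). MSMO1 lies on chromosome 8 from 43726834 to 43745784.

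HSD17B7, the ketone reductase that ends each round of that removal, had the largest log2 difference of the 6. It is also known for reducing estrone to estradiol in other tissues. It stood at 475, 648 and 711 TPM in large-follicle libraries 1, 2 and 3, against 456, 468 and 450 TPM in small-follicle libraries 1, 2 and 3. Large-follicle libraries 2 and 3 stood well above, and large-follicle library 1 next to, the small-follicle libraries. The log2 difference was 0.42 (SE 0.13, 95% interval 0.13 to 0.72; edgeR's quasi-likelihood test, adjusted p = 0.152), a ratio between 1.09 and 1.64. Without large-follicle library 1 the difference was 0.57 and passed (edgeR's quasi-likelihood test, adjusted p = 0.0352, with 0.533% of all genes passing). Without large-follicle library 3 it was 0.28 (adjusted p = 0.119 by the same test), and DESeq2 on all libraries gave an adjusted p of 0.0365. Over its alternatives the adjusted p ran from 0.0352 to 0.455.

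Of the 17 granulosa and cumulus markers, 6 (FSHR, INHBA, INHA, CYP19A1, FST and CD44) had the same order as HSD17B7 over the 3 large-follicle libraries, 3 (GATA4, KITLG and TNFAIP6) had the opposite order and 8 neither. The share of all genes with either order was not counted, so these counts cannot be read as particular to the markers. Some orders rest on few reads. Large-follicle library 3 held 7 reads of FSHR, 12 each of CYP19A1 and CD44, and 1 of TNFAIP6. GATA4, the highest of the markers, stood at 95.8, 94.9 and 68.4 TPM in large-follicle libraries, against 92.2, 83.9 and 88.0 TPM in small-follicle libraries. INHBA, an inhibin and activin subunit, stood at 8.83, 14.6 and 32.4 TPM in large-follicle libraries, against 28.2, 20.6 and 4.66 TPM in small-follicle libraries. FSHR stood at 0.571, 0.933 and 1.26 TPM in large-follicle libraries, against 2.31, 0.608 and 0.0748 TPM in small-follicle libraries. GATA4, INHBA and FSHR overlapped between the groups. Of the 17 markers, 1 was higher in every large-follicle library, where 10.2% of all genes tested were. That marker was NR2F2 (3.17 TPM in large-follicle and 2.04 TPM in small-follicle oocytes). Summed granulosa and cumulus markers were 252, 255 and 257 TPM in the large-follicle libraries and 336, 273 and 228 TPM in the small-follicle libraries. Their part in the HSD17B7 difference was not tested. HSD17B7 lies on chromosome 4 from 87720747 to 87743037. Some members of its family were looked up after the values were seen. Of those looked up, HSD17B12 (93.6 and 93.7 TPM in large-follicle and small-follicle oocytes), HSD17B4 (63.1 and 64.6 TPM) and HSD17B10 (27.3 and 36.9 TPM) were the next in level.

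DHCR7, the reductase that removes the ring double bond to give cholesterol, had a difference of the opposite sign. It stood at 8.30, 7.35 and 7.42 TPM in large-follicle libraries, against 9.61, 8.64 and 9.02 TPM in small-follicle libraries. The groups did not overlap, with the highest large-follicle library close under the lowest small-follicle library. The log2 difference was -0.24 (SE 0.11, 95% interval -0.48 to 0.0026; edgeR's quasi-likelihood test, adjusted p = 0.281). It rests on 103 reads in large-follicle library 3 and 904 in small-follicle library 1, the lowest and highest counts of the gene. DHCR7 lies on chromosome 2 from 2377352 to 2391846.

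**Figure D2:**
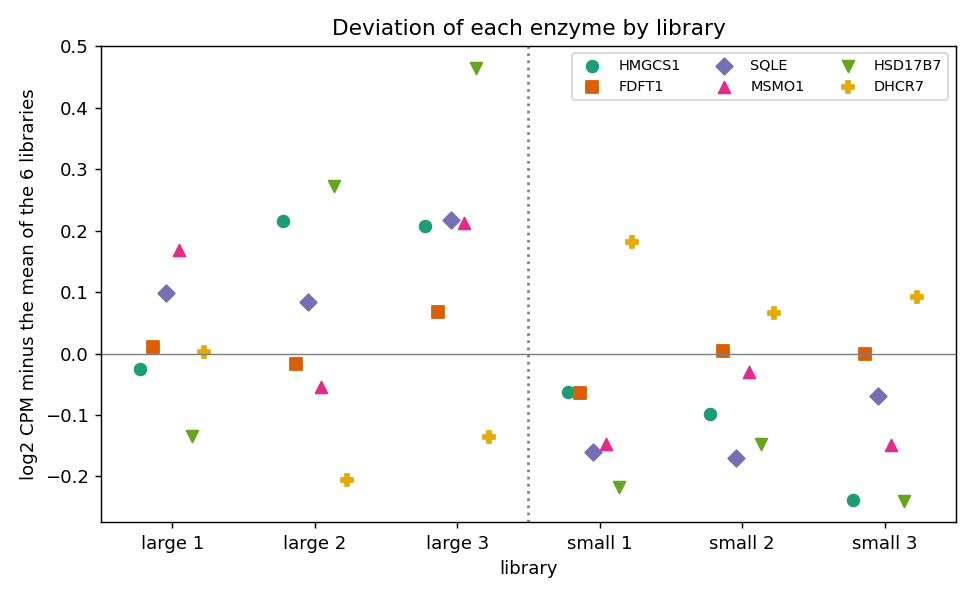
Log2 CPM of each enzyme minus its mean over the 6 libraries (y axis), by library (x axis), after TMM scaling. HSD17B7 spans from -0.24 in small-follicle library 3 to 0.47 in large-follicle library 3, FDFT1 stays within -0.064 and 0.067, and DHCR7 lies above 0 in the small-follicle libraries, where the other enzymes lie at or below 0.0042.

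The enzymes varied to different extents over the libraries. HSD17B7 had an SD of 0.30 over libraries on the log2 CPM scale, against 0.18 for HMGCS1, 0.16 for SQLE and MSMO1 and 0.15 for DHCR7. The ratio of HSD17B7 to FDFT1 in TPM was 0.617, 0.835 and 0.900 in large-follicle libraries 1, 2 and 3, against 0.613, 0.614 and 0.578 in small-follicle libraries. That of SQLE to HMGCS1 was 2.56 ± 0.226 in large-follicle and 2.56 ± 0.269 in small-follicle oocytes. Averaged over the 6 enzymes, the centred profile stood at 0.020, 0.049 and 0.17 in large-follicle libraries, against -0.078, -0.062 and -0.10 in small-follicle libraries, and large-follicle library 3 stood farthest out. The 3 genes nearest to this profile over the 6 libraries, by root mean square distance in log2 CPM, were TP53RK (0.018), SF3A3 (0.027) and MAGT1 (0.027), out of 11530 genes at least as variable as the profile.

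Set along the pathway, transcript level was uneven from step to step. The order of the 18 enzymes reported, by mean TPM over the 6 libraries, was FDFT1 (770 ± 15.8), HSD17B7 (535 ± 114), NSDHL (115 ± 9.40), MSMO1 (105 ± 10.3), IDI1 (78.8 ± 6.53), SQLE (78.1 ± 8.23), LBR (52.8 ± 5.55), MVD (47.5 ± 7.71) and HMGCS1 (30.7 ± 3.87), with SD over libraries. EBP (26.9 ± 1.57), CYP51A1 (22.2 ± 1.88), MVK (16.5 ± 4.67), DHCR7 (8.39 ± 0.895), TM7SF2 (6.83 ± 1.14), PMVK (6.72 ± 1.49), FDPS (5.96 ± 1.02), ACAT2 (2.85 ± 0.513) and SC5D (2.52 ± 0.279) followed. FDFT1 was above HSD17B7, and HSD17B7 above NSDHL, in 6 of 6 libraries with ranges that did not overlap. The ranges of NSDHL and MSMO1, of IDI1 and SQLE, of MVD and HMGCS1, of HMGCS1 and EBP, and of DHCR7 and TM7SF2 overlapped. Those of MSMO1 and IDI1, of SQLE and LBR, and of MVK and DHCR7 did not.

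FDFT1 was thus flanked by steps with far fewer transcripts. FDPS, which makes the farnesyl diphosphate that FDFT1 uses, had 5.45 ± 1.12 TPM in large-follicle and 6.46 ± 0.762 TPM in small-follicle oocytes. ACAT2, the thiolase at the start, had 2.97 ± 0.617 TPM in large-follicle and 2.73 ± 0.484 TPM in small-follicle oocytes. In TPM, the complex that removes the methyl groups was uneven too. HSD17B7 had 5.59 ± 0.953 times the TPM of NSDHL, its dehydrogenase partner, in large-follicle and 3.80 ± 0.0997 times in small-follicle oocytes. In reads they lay closer: averaged over all libraries, HSD17B7 had 21.3% and NSDHL 14.7% of the reads of FDFT1. Near the end, SC5D, the desaturase that makes the substrate of DHCR7, had 2.54 ± 0.363 TPM in large-follicle and 2.50 ± 0.247 TPM in small-follicle oocytes.

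**Figure D3:**
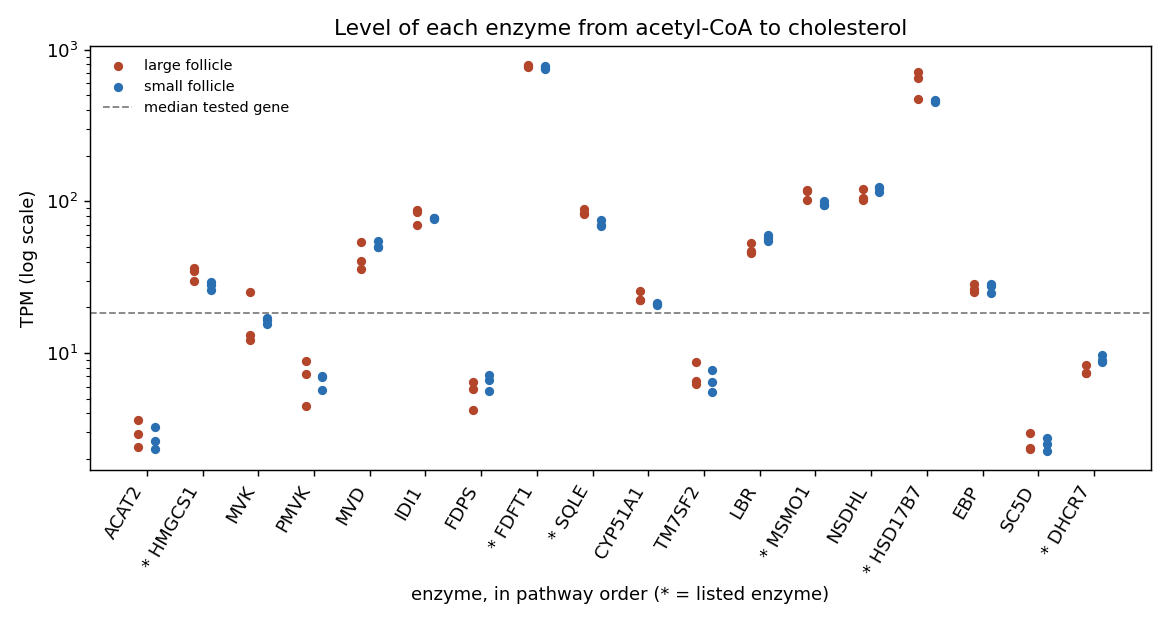
TPM (log scale) of 18 enzymes in pathway order, with the listed enzymes starred, in the 3 large-follicle (red) and 3 small-follicle (blue) libraries; the dashed line is the median tested gene. FDFT1 and HSD17B7 stand above the rest, and ACAT2 and SC5D lowest.

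The level of a gene in TPM depends on the length assigned to it. The deposited counts and TPM give 1 length per gene in every library. Relative to FDFT1, that length was 0.307 for HSD17B7, 0.354 for MSMO1 and 0.983 for NSDHL. In reads, FDFT1 had 4.84 times as many as HSD17B7 on average, against 1.49 times in TPM. The way those lengths were set is not given in the sources used here. The order between genes rests on them, and differences between follicle sizes do not.

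None of the 12 other enzymes reported passed (edgeR's quasi-likelihood test), with 5 higher and 7 lower in large-follicle oocytes and a median log2 difference of -0.0067. DESeq2 called 0 of the 10 to which it gave an adjusted p. At an unadjusted p under 0.05 there was 1, lower in large-follicle oocytes as were 8.17% of all genes: LBR, a sterol reductase that also anchors chromatin at the nuclear envelope. It stood at 46.9, 52.9 and 45.7 TPM in large-follicle libraries, against 57.1, 54.6 and 59.7 TPM in small-follicle libraries, a log2 difference of -0.23 (SE 0.078; edgeR's quasi-likelihood test, adjusted p = 0.178). CYP51A1, the demethylase that acts on lanosterol, stood at 23.6 ± 1.88 and 20.9 ± 0.267 TPM in large-follicle and small-follicle oocytes (0.18, SE 0.083), and MVD, the mevalonate diphosphate decarboxylase, at 43.4 ± 9.67 and 51.5 ± 2.44 TPM (-0.27, SE 0.14). With all libraries, MVK, mevalonate kinase, had a log2 difference of -0.0052 and NSDHL -0.14 (edgeR's quasi-likelihood test, adjusted p = 0.996 and 0.431). Without large-follicle library 3, MVD (-0.45), MVK (-0.38) and NSDHL (-0.23) fell in large-follicle oocytes, 3 of 12, where 5.37% of all genes fell and 13.2% passed in either direction. None of the 6 enzymes passed there, with 3 at an unadjusted p under 0.05, against 28.7% of all genes, and SQLE had an adjusted p of 0.0584 (edgeR's quasi-likelihood test).

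**Figure D4:**
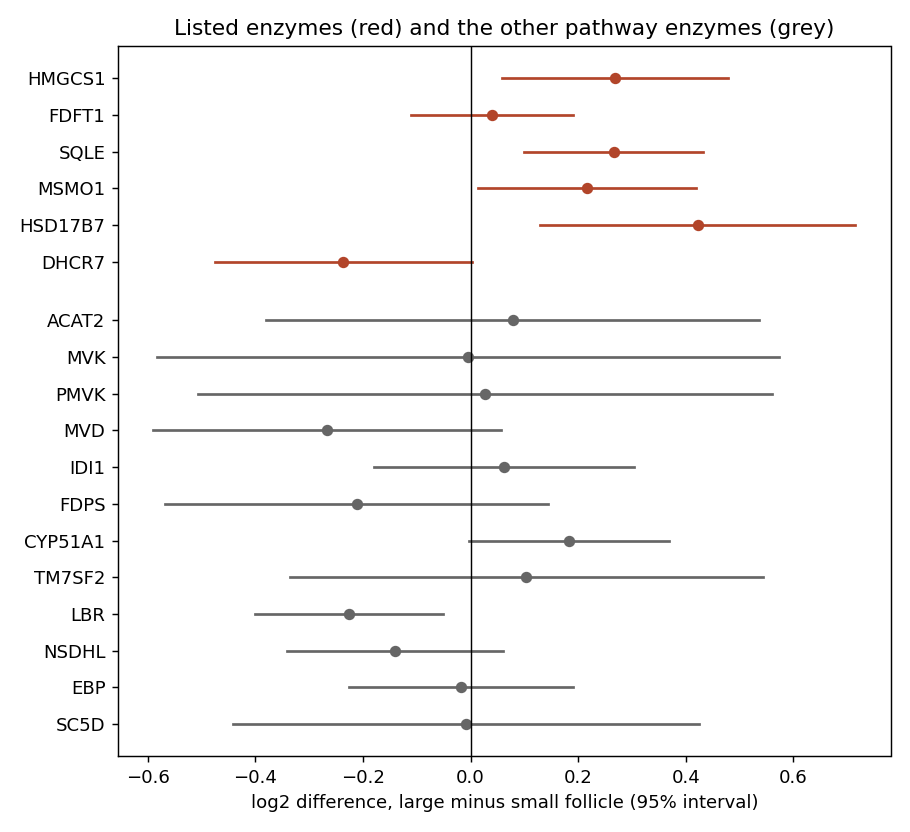
Log2 difference, large minus small follicle, with its 95% interval from edgeR (x axis), for the 6 listed enzymes (red) and 12 other enzymes (grey) in pathway order (y axis). The intervals of HMGCS1, SQLE, MSMO1 and HSD17B7 lie above 0 and that of LBR below it, before adjustment over all genes.

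No gene reported of sterol sensing, uptake, storage or isoprenoid use passed in the 6 libraries (edgeR's quasi-likelihood test; 0 of 9, 0 of 9, 0 of 4 and 0 of 8 tested). At an unadjusted p under 0.05 there were 1 of 9 regulators and 3 of 9 uptake genes, against 18.0% of all genes. DESeq2 called 1 of 9 regulators and 1 of the 7 uptake genes to which it gave an adjusted p, against 6.59% of all genes. SREBF2, the gene of SREBP2, stood at 66.6 ± 10.4 TPM in large-follicle and 66.5 ± 3.39 TPM in small-follicle oocytes (n = 3 each), and INSIG1, which holds SREBP2 in the endoplasmic reticulum, at 29.4 ± 2.09 and 30.0 ± 0.497 TPM. Among the regulators NR1H2, a liver X receptor, was highest (117 ± 14.3 TPM in large-follicle and 125 ± 1.95 TPM in small-follicle oocytes). MBTPS2, a protease that cuts SREBP2 free, stood at 24.0, 28.3 and 20.8 TPM in large-follicle libraries, against 19.8, 17.7 and 19.5 TPM in small-follicle libraries (log2 difference 0.38, SE 0.11; edgeR, adjusted p = 0.132). It rose without large-follicle library 3 (0.45; edgeR, adjusted p = 0.0131), as did 7.79% of all genes there, and by DESeq2 (adjusted p = 0.0432). MBTPS1, which makes the first cut, had a log2 difference of -0.17 (SE 0.082).

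Among the lipoprotein receptors the differences had both signs. VLDLR, which binds very-low-density lipoprotein, stood at 62.0, 45.0 and 45.3 TPM in large-follicle libraries, against 67.6, 70.7 and 73.5 TPM in small-follicle libraries, without overlap. Its log2 difference was -0.47 (SE 0.12; edgeR, adjusted p = 0.117). It fell without large-follicle library 1 (-0.64; edgeR, adjusted p = 0.0238), where 0.533% of all genes passed, and by DESeq2 (adjusted p = 0.0118). LRP8, a related receptor, stood at 10.6 ± 0.881 and 8.15 ± 0.174 TPM in large-follicle and small-follicle oocytes (log2 difference 0.38, SE 0.12). SCARB1, the receptor for high-density lipoprotein, was low, at 0.333 ± 0.0928 TPM in large-follicle and 1.16 ± 1.15 TPM in small-follicle oocytes, where small-follicle library 1 stood at 2.44 TPM and the mean without it was 0.513 TPM. NPC1, which exports cholesterol from lysosomes, was the highest of the uptake genes (240 ± 42.8 TPM in large-follicle and 219 ± 12.3 TPM in small-follicle oocytes). With all libraries, NPC1 had a log2 difference of 0.14 and STARD3, a late endosomal sterol carrier, -0.27 (edgeR, adjusted p = 0.544 and 0.295). Without large-follicle library 3, NPC1 rose (0.26) and STARD3 fell (-0.39), with adjusted p of 0.0318 and 0.0396 by edgeR. In that fit 7.79% of all genes rose and 5.37% fell.

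SOAT1, which esterifies cholesterol for storage, led the storage and efflux genes (43.3 ± 7.93 TPM in large-follicle and 43.6 ± 1.45 TPM in small-follicle oocytes). Its relative SOAT2 averaged 0.363 TPM in large-follicle and 0.236 TPM in small-follicle oocytes (log2 difference 0.59, SE 0.36). The efflux transporter ABCA1 averaged 26.5 TPM in large-follicle and 28.2 TPM in small-follicle oocytes (log2 difference -0.071, SE 0.15). On the isoprenoid branches 7 of 8 genes had a higher mean in large-follicle oocytes, with a median log2 difference of 0.12. Over all genes tested, 7155 of 14091 had a higher mean. None of the 8 had an unadjusted p under 0.05 (edgeR's quasi-likelihood test). FNTB, a farnesyltransferase subunit, was highest (185 ± 26.9 and 170 ± 4.24 TPM in large-follicle and small-follicle oocytes). COQ2, of ubiquinone synthesis, had a log2 difference of 0.14 (SE 0.080) and NUS1, of dolichol synthesis, 0.18 (SE 0.10).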

How the data were processed

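RNA of pig oocytes was sequenced from a directional library kit, per the labels' protocols, in 3 large-follicle and 3 small-follicle libraries. The authors deposited 19296 rows of whole-number read counts, not normalised, beside TPM values that the authors scaled by gene length and depth. Sscrofa11.1 is the genome build per the submitters' processing notes. The strand setting, aligner, counter and annotation are not stated. Overlapping, antisense and near-identical genes may therefore share reads. The 25 rows named by a date (mean 0.153% of reads) were left out, and 853 Ensembl identifiers were given their symbol. Positions come from a RefSeq table of the same assembly.

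The test was edgeR 4.0.16's quasi-likelihood F test (R 4.3.3; TMM, filterByExpr, robust, group alone), with Benjamini-Hochberg adjustment over 14091 genes. SE is the absolute log2 difference over the square root of F. CPM are TMM-scaled, with 0.5 added before logs for profiles and spread. limma 3.58.1 and DESeq2 1.42.0 gave alternatives. The code was tested on simulated counts. Replicate libraries were set against each other (chi-square divided by its degrees of freedom, 10.4 to 22.2), and none was a repeat of another. The enzymes and lists were chosen with earlier results of these data known. Genes outside the 6 were named by level, by passing, or as the 3 (enzymes) or 2 (each other list) with the smallest p. The highest of each list was added, as were the 3 genes nearest in profile. SREBF2, INSIG1, SCARB1, FSHR, INHBA and NR2F2, and the other genes passing without a library, were named after their values were seen. Some listed genes are not reported here.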

Additional observations from a re-analysis of the deposited data

How the results depend on the processing

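HMGCS1, SQLE, MSMO1, HSD17B7 and DHCR7 kept the sign of their difference in 14 of 14 alternatives each. FDFT1 kept it in 13 and was reversed, at -0.0091, with library size alone. Of the 6 enzymes, 2 passed by DESeq2 (0 by edgeR) and 0 to 1 without each library in turn. Of the other enzymes and sterol handling genes, 2 of 36 passed by DESeq2, against 6.59% of all genes, and 0 to 6 of 42 without each library. Those 6 of 42 passed without large-follicle library 3, where 13.2% of all genes did. None of the 6 listed enzymes passed in that fit. Over all genes, 9 passed, against 0 with DESeq2 size factors in edgeR (2525 at an unadjusted p under 0.05), 14 with library size alone and 679 by DESeq2. limma gave 0 on log2(TPM + 1) and 0 on log2(TPM + 0.1), with 2193 and 2157 at an unadjusted p under 0.05. There were 52 without a filter, 19 at 5 CPM and 0 to 1899 without each library in turn. The cause was not tested. Ratios of mean TPM moved by less than the spread when the 5 highest genes were left out or CPM was used. Same-numbered libraries did not deviate together (correlations -0.13, -0.060 and -0.21). With so few libraries in each group, these correlations cannot tell whether the numbers pair the libraries. With the replicate number as a block, 24 genes passed over all and 0 of the 6 enzymes. No library correlated best with the library of its own number in the other group. The number of the 6 at an unadjusted p under 0.05 ran from 2 to 5. It was 2 without small-follicle library 3, where 1918 of 14178 genes were under that p. It was 5 with DESeq2 size factors in edgeR, where 2525 of 14091 genes were. Of the 6, DHCR7 had the fewest reads in the shallowest library, at 103.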
